A study of Drosophila melanogaster with 120 samples.

Results

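The transcripts of 4 fruit fly genes that act on chromatin, kis, HDAC3, SuUR and His4r, were followed by tissue, age and selection regime. They are the rows FBtr0078144 (kis), FBtr0078767 (HDAC3), FBtr0076203 (SuUR) and FBtr0082962 (His4r), 4 of the 16637 transcripts on the array. They were chosen by identifier, with earlier results of these data known. All 4 had a value on every one of the 120 arrays, and no filter on low values was applied. The RefSeq gene table of Drosophila melanogaster (Release 6 plus ISO1 MT) places kis on chromosome arm 2L, SuUR on 3L, and HDAC3 and His4r on 3R. It ties kis and His4r to their transcripts by a whole synonym, and HDAC3 and SuUR by part of a composite one.

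Chromatin is DNA wrapped around histones, and its packing decides which genes can be read and how it is copied. Remodelling enzymes move or open nucleosomes, deacetylases take acetyl groups off histones and so help to silence genes, heterochromatin proteins keep compact regions compact, and replacement histones supply new histone protein outside DNA replication. kis (kismet) encodes a chromodomain helicase of the trithorax group, an ATP-driven remodeller that promotes transcription. HDAC3 is the deacetylase of the SMRT-type corepressor complex. SuUR (Suppressor of Underreplication) is a heterochromatin protein that holds back the copying of compact DNA in cells with polytene chromosomes. His4r encodes the replacement form of histone H4, from a gene that lies outside the histone cluster and is read independently of replication.

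The arrays were one-colour NimbleGen expression arrays, hybridised with amplified RNA from unmated females kept at 25 °C with 12 hours of light and 12 of dark. Control flies came from populations mated at 14 days of age, and selection flies from populations whose mating was put off to 28 and later to 40 days over 35 generations, which selects for a longer reproductive life. All populations descended from one stock of wild-caught flies, there were 3 of each regime, and no transgene or deletion is named for any of them. Heads and abdomens were sampled on days 1, 5, 15, 30 and 50, with 2 biological replicates of each population, day and tissue, which makes 20 groups with 6 arrays apiece. How many flies made up a sample is not given in the sources used here.

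Values are log2 intensities, so a step of 1 is a doubling of the signal. In tests the population was the unit of replication, its biological replicates being averaged first, and adjusted p values are from limma with Benjamini-Hochberg adjustment over all 16637 transcripts. A change was called at an adjusted p under 0.05. Intensities of different transcripts depend on their own probes and are not compared here. Because a sample is a whole head or abdomen, fewer cells of a type and less RNA per cell cannot be told apart. No marker of nerve cells, eye, ovary, fat body or muscle could be read, since the gene table tied none of 28 marker symbols to a transcript of the array (0 of 28).

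Some arrays stood apart from their labels. A score made from other transcripts places an array between the typical day-1 profile at 1 and the typical later profile at 0. By it, 5 of the 60 heads scored opposite to their label, under 0.25 on day 1 or over 0.75 on a later day. Of these, 2 were the day-1 pair of control population 3, and the others were day-30 heads of control population 3 (biological replicate 1) and of selection population 3 (biological replicate 2), and a day-50 head of control population 2 (biological replicate 1). No abdomen was misplaced in this way, but the day-1 arrays of control population 1 fell between, at 0.54 in both abdomens and at 0.467 and 0.483 in the heads. By a separate measure, 9 heads and 1 abdomen correlated under 0.95 with the median profile of the other arrays of their tissue and day, against a median of 0.988 for heads and 0.990 for abdomens. These 10 arrays include the 5 heads of opposite score. Values are given below without these arrays where that changes a result. One array of control population 3 (day 15, head) carries a title that numbers it as replicate 3, while its other label gives biological replicate 1.

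**Figure D1:**
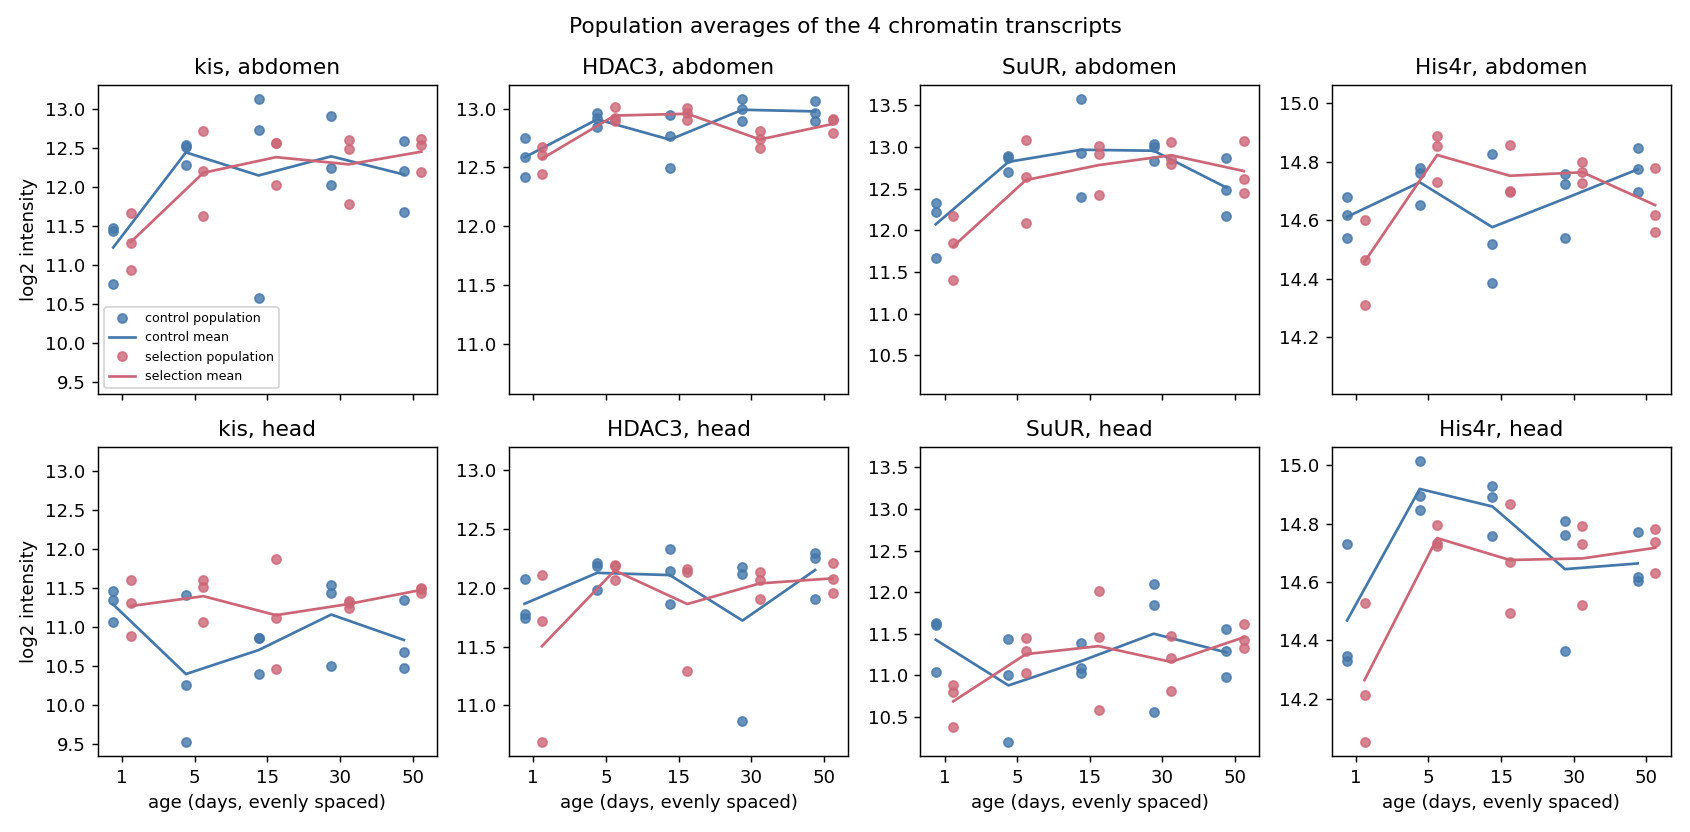
Log2 intensity of each transcript (columns) in abdomens (upper row) and heads (lower row) against age in days, evenly spaced. Each point is the average of 2 biological replicates of a population, lines join the means of the 3 control (blue) or 3 selection (red) populations, and both rows of a column share their axis. kis, HDAC3 and SuUR lie lower in head at most ages, and all 4 start low on day 1 in abdomen.

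The first question was how the 4 genes differ between head and abdomen. SuUR, kis and HDAC3 were lower in head, and His4r was at nearly the same level in both tissues. Over the 5 days and 6 populations SuUR averaged 11.22 ± 0.233 in head and 12.61 ± 0.204 in abdomen (SD, n = 6), a 2.63-fold difference. kis was 2.00-fold lower in head and HDAC3 1.82-fold lower. The 3 differences, -1.40 for SuUR, -1.0 for kis and -0.87 for HDAC3 on the log2 scale, had the same sign in 6 of 6 populations (limma adjusted p 1.62e-10, 1.49e-06 and 7.78e-08). His4r differed by -0.02, with a 95% confidence interval from -0.12 to 0.09 (limma adjusted p 0.733). Thus 3 of 4 members were called, where 87.4 percent of all transcripts were, and 62.9 percent of all transcripts were called lower in head. The median transcript was itself lower in head (-0.25) as deposited, and the members' differences include that shift. With a minimum of 2-fold added, HDAC3 was no longer called, kis lay at the limit, and 33.6 percent of all transcripts passed.

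Single arrays overlapped between the tissues. The 60 abdomens ranged from 11.74 to 13.27 for HDAC3 with a median of 12.87, and the 60 heads from 9.54 to 12.61 with a median of 12.09. SuUR ran from 11.04 to 13.80 in abdomen (median 12.73) and from 9.79 to 12.33 in head (median 11.32). kis ran from 9.62 to 13.24 in abdomen (median 12.33) and from 8.85 to 11.99 in head (median 11.31). For each of the 3 the lowest abdomens overlapped the highest heads. His4r filled the same range in both, 14.10 to 15.01 in abdomen and 13.78 to 15.03 in head. Its signal lay near the top of the values seen, which ended at 15.83 in abdomens and 15.76 in heads. Whether differences are resolved less well at that height was not tested.

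Split by day, the tissue difference of kis was near 0 at the start in the values as deposited. On day 1, kis had the same average in head (11.28 ± 0.263) and abdomen (11.26 ± 0.345; SD, n = 6), a difference of 0.02 with a 95% confidence interval from -0.33 to 0.36 (limma adjusted p 0.929). From day 5 on, kis was lower in head in 6 of 6 populations on each day, by -1.42 on day 5, -1.34 on day 15, -1.12 on day 30 and -1.15 on day 50. SuUR was lower in head on all 5 days, by -0.88 on day 1, then -1.65, -1.61, -1.60 and -1.25. HDAC3 kept a more even difference, between -0.79 and -0.98. Each of these differences of SuUR and HDAC3, and those of kis from day 5, passed the test, while His4r passed on none of the 5 days as deposited. The members called numbered 2 on day 1 and 3 on each later day, where 64.5 percent of all transcripts were called on day 1, 77.7 percent on day 5, 69.4 percent on day 15, 75.1 percent on day 30 and 78.6 percent on day 50.

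The direction for His4r, and the day-1 value of kis, depend on scaling. On day 1 kis became higher in head, by 0.61 after quantile normalization over all arrays and by 0.45 with each array centred on its median, both called (limma adjusted p 0.0049 and 0.0194). From day 5 on it stayed lower in head under both. Over all days His4r turned from -0.02 to 0.15 higher in head after quantile normalization over all arrays and to 0.42 higher with each array centred on its median, both called (limma adjusted p 0.0081 and 2.13e-05). On single days His4r was then called higher in head on day 15 after quantile normalization (0.24), and on days 5, 15, 30 and 50 after centring (0.32 to 0.56). SuUR (-0.78 and -0.96), kis (-0.36 and -0.57) and HDAC3 (-0.29 and -0.43) stayed lower in head under those scalings, by less than as deposited. Under quantile normalization 6 of the differences on single days were no longer called, on days 1, 15 and 30 for HDAC3, on days 15 and 30 for kis and on day 1 for SuUR.

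**Figure D2:**
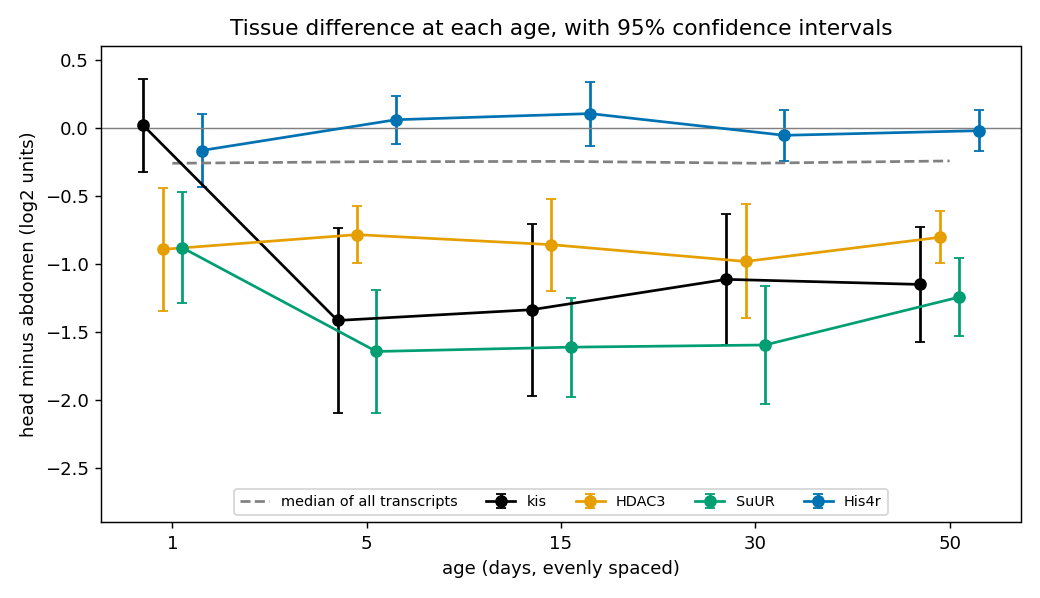
Head minus abdomen on the log2 scale for each transcript at each age (days, evenly spaced), with 95% confidence intervals from limma over 6 populations; the dashed line is the median of all 16637 transcripts. All values are as deposited. The kis difference is 0.02 on day 1 (0.61 higher in head after quantile normalization and 0.45 after median centring) and at or below -1.12 on every later day, while His4r stays within 0.17 of 0 at this scaling.

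The second question was how the levels move as young adults mature, from day 1 to day 5. In abdomen all 4 genes rose. kis rose by the largest step of the 4, from 11.26 ± 0.345 to 12.31 ± 0.382 (SD, n = 6), a 2.07-fold change of 1.05 ± 0.302 on the log2 scale (standard error; limma adjusted p 0.0053). SuUR rose 1.71-fold, from 11.94 ± 0.365 to 12.71 ± 0.343, by 0.77 ± 0.165 (limma adjusted p 3.98e-04). HDAC3 rose by 0.35 ± 0.084 and His4r by 0.24 ± 0.070 (limma adjusted p 0.0014 and 0.0059). Without biological replicate 1 these last rises, of HDAC3 (0.37) and His4r (0.22), were not called (limma adjusted p 0.0608 and 0.0572), nor was His4r without selection population 3 (0.20, limma adjusted p 0.057). Much of the array moved in this step: 50.3 percent of all transcripts were called in either direction and 26.5 percent were called higher on day 5. The median change was 0.04 over all transcripts and 0.56 over the 4 members.

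Single arrays show the step and its overlap. On day 1 the 6 control abdomens of kis ranged from 9.77 to 11.89 (median 11.47) and the 6 selection abdomens from 10.39 to 11.85 (median 11.46). On day 5 they ranged from 11.83 to 12.73 (median 12.53) and from 11.46 to 12.85 (median 12.20). The day-1 and day-5 control ranges overlapped only between 11.83 and 11.89, and the selection ranges overlapped from 11.46 to 11.85. Selection population 1 averaged 11.66 on day 1 and 11.63 on day 5, and in the other 5 populations kis was 0.80 to 1.77 higher on day 5. SuUR rose in 6 of 6 populations, by 0.24 to 1.25, and selection population 1 again changed least. HDAC3 rose in 6 of 6, by 0.10 to 0.50, and its 12 arrays of day 5 (12.72 to 13.04) lay close together, against 12.28 to 12.97 on day 1. The change of His4r ran from -0.03 in control population 1 to 0.54 in selection population 3, and it was upward in 5 of 6. The smallest changes of HDAC3 and His4r were those of control population 1, whose day-1 arrays lay between young and older profiles. Its part in them was not tested, and without those arrays the rises were 0.39 and 0.28.

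In head only His4r was called. It rose from 14.37 ± 0.238 to 14.83 ± 0.110 (SD, n = 6), by 0.20 to 0.68 in the 6 populations, a mean of 0.47 ± 0.103 (standard error; limma adjusted p 0.0032). Without biological replicate 2 of every population, it was 0.36 and not called (limma adjusted p 0.214). The 12 head arrays of His4r on day 1 ran from 13.78 to 14.87 and those on day 5 from 14.55 to 15.03. The highest day-1 array, 14.87, was a head of control population 3, which has an older profile by the score. The background for the count of 1 of 4 is 19.5 percent of transcripts called, with 9.8 percent called higher on day 5.

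The other 3 did not pass in head. HDAC3 averaged 0.45 higher on day 5 with a limma adjusted p of 0.131, and it was 0.24 without selection population 3, which averaged 10.69 on day 1 and 12.18 on day 5. In that population 1 day-1 array read 9.68 and its replicate 11.69. kis averaged 0.38 lower (-0.38, limma adjusted p 0.357) and SuUR changed by 0.01 (limma adjusted p 0.984), each with wide spread. kis went from -1.93 in control population 3 to 0.72 in selection population 3, and SuUR from -1.41 to 0.92 in the same populations. Without the heads of opposite score, HDAC3 was called at 0.50 (limma adjusted p 0.0377), kis stood at -0.28 (limma adjusted p 0.513) and SuUR at 0.15 (limma adjusted p 0.656). Without both displaced sets HDAC3 was again not called, at 0.49 (limma adjusted p 0.102). Without the 10 arrays of low correlation, HDAC3 was called at 0.34 (limma adjusted p 0.011), and kis and SuUR were not, at -0.30 and 0.13.

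**Figure D3:**
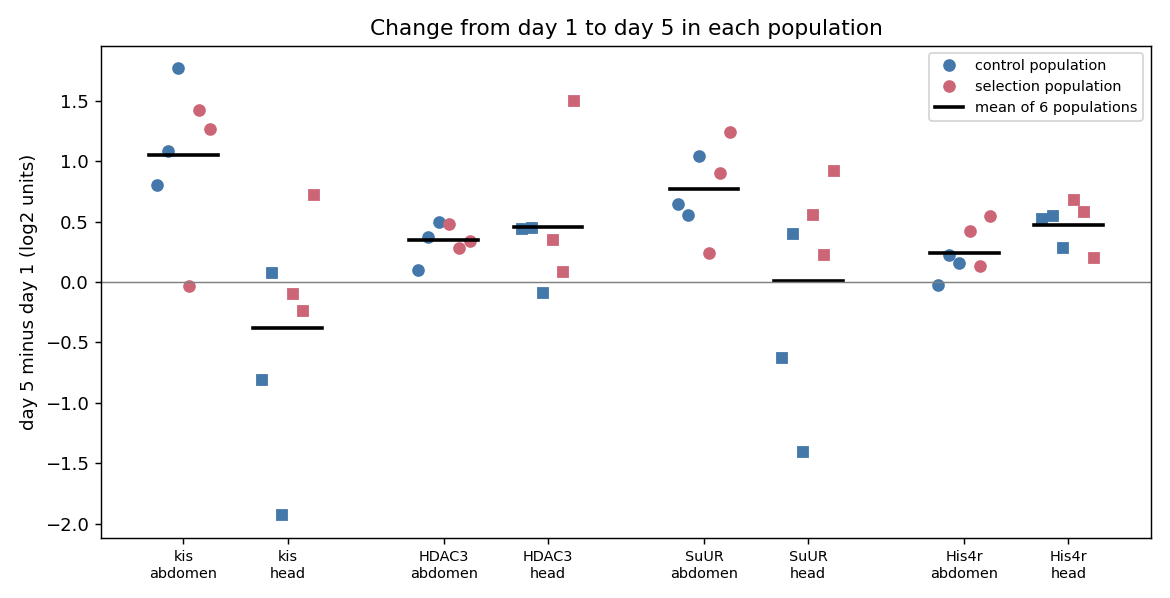
Change from day 1 to day 5 on the log2 scale for each transcript in abdomens (circles) and heads (squares). Each symbol is 1 population, control in blue and selection in red, and bars mark the mean of 6 populations. In abdomen the means are 1.05 for kis, 0.35 for HDAC3, 0.77 for SuUR and 0.24 for His4r, and in head kis and SuUR spread on both sides of 0.

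The tissues were compared in this step by testing the difference itself. The change of kis was 1.43 log2 units lower in head than in abdomen (-1.43, 95% confidence interval -2.27 to -0.60, limma adjusted p 0.0062), lower in 6 of 6 populations. That of SuUR was lower by 0.76 (-0.76, 95% confidence interval -1.39 to -0.14, limma adjusted p 0.0459), lower in 5 of 6. HDAC3 (0.11) and His4r (0.23) did not pass (limma adjusted p 0.749 and 0.142). The 2 called of 4 stand against 41.3 percent of all transcripts called. Control population 3 had the largest tissue difference for both, -3.70 for kis and -2.45 for SuUR, and its day-1 heads are 2 of the arrays of opposite score. Its day-5 heads read 8.85 and 10.20 for kis and 9.79 and 10.60 for SuUR. The lower value of each gene lay on an array of low correlation (0.945). Without the heads of opposite score the difference of kis was -1.17 and still called (limma adjusted p 0.0187), and that of SuUR was -0.55 and was not (limma adjusted p 0.11). Leaving out the day-1 arrays of control population 1 as well took both calls away (limma adjusted p 0.101 for kis at -0.98 and 0.577 for SuUR at -0.24). Without biological replicate 2 the call of kis was also lost (-1.47, limma adjusted p 0.0602), and that of SuUR was lost in 6 of 8 fits that left out 1 population or biological replicate.

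The third question was what happens after day 5. None of the 4 genes was called between day 5 and day 50 in either tissue, where 0.914 percent of transcripts were called in abdomen and 1.76 percent in head. In abdomen the differences were -0.01 for kis, -0.10 for SuUR, -0.0021 for HDAC3 and -0.06 for His4r. The 95% confidence interval was -0.18 to 0.17 for HDAC3 and -0.63 to 0.62 for kis, so the bound on a change is much wider for kis. In head the differences were 0.26 for kis, 0.30 for SuUR, -0.02 for HDAC3 and -0.14 for His4r. The first 2 rest on control population 3: without it kis was -0.09 and SuUR 0.06 (limma adjusted p 0.989 and 0.992). The tissues were not called different in this change for any of the 4 genes, where 1.06 percent of transcripts were. At unadjusted p under 0.05, 1378 transcripts passed in abdomen and 1771 in head. The steps from day 5 to 15, day 15 to 30 and day 30 to 50 gave no call for the 4 genes either, with 0.733, 0 and 0 percent of transcripts called in abdomen and 0.00601, 0 and 0.00601 percent in head.

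Ordered by level, day 1 was the lowest day of all 4 genes in abdomen. For kis the other days followed within 0.08 of each other, day 15 at 12.27, day 50 and day 5 at 12.31 and day 30 at 12.34. For SuUR the order was day 50 (12.61), day 5 (12.71), day 15 (12.88) and day 30 (12.93), and no neighbouring later ages differed beyond their spread. HDAC3 ran from 12.85 on day 15 to 12.92 on day 5, and His4r from 14.66 on day 15 to 14.78 on day 5. In head, day 1 had the lowest mean of HDAC3 (11.68), SuUR (11.06) and His4r (14.37) but the highest of kis (11.28). For SuUR day 5 was almost level with day 1 (11.07, population SDs 0.468 and 0.487). The day-1 mean of HDAC3 includes the array at 9.68, and its rise to day 5 was not called with all arrays. kis in head was lowest on day 5 (10.90) and day 15 (10.93), with population SDs of 0.833 and 0.536 that exceed the gaps between days. His4r in head peaked on day 5 (14.83) and read 14.77, 14.66 and 14.69 on days 15, 30 and 50.

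From day 1 to day 50 all 4 genes were higher in abdomen, in 6 of 6 populations each, where 51.3 percent of transcripts were called and 27.7 percent were called higher. The net changes were 1.05 for kis, 0.67 for SuUR, 0.34 for HDAC3 and 0.18 for His4r (limma adjusted p 0.0054, 0.0015, 0.0015 and 0.0382). kis rose by 0.77 to 1.26, a narrower span over populations than in the first step. In head only His4r passed, at 0.32 (limma adjusted p 0.0241, higher in 6 of 6), where 25.9 percent of transcripts were called and 14 percent were called higher. Without the heads of opposite score, SuUR at 0.60 and HDAC3 at 0.45 passed too. These net calls were not equally firm. In abdomen that of kis went without biological replicate 1 (0.85, limma adjusted p 0.0578) and that of HDAC3 without biological replicate 2 (0.28, limma adjusted p 0.0582). The abdominal call of His4r went after median centring (limma adjusted p 0.166), without the arrays of low correlation (limma adjusted p 0.0547), and in 5 of 8 fits that left out 1 population or biological replicate (0.11 to 0.20). Its call in head went without control population 1 on day 1 (0.29, limma adjusted p 0.0702) and also in 5 of 8 such fits (0.24 to 0.33). Both comparisons share their day-1 arrays with the step to day 5.

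The fourth question was whether selection for a longer reproductive life moved these genes. No member was called for regime in abdomen or head, over all days or on any day. The background was 0 percent over all days in both tissues and 0 percent on every single day, except 0.00601 percent on day 5 in abdomen, which is 1 transcript. At unadjusted p under 0.05, limma passed 225 transcripts in abdomen and 2755 in head over all days. With 3 populations against 3, an exact test of 1 transcript could not go below 0.1.

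Of the 4 genes over all days, kis in head came closest. Its population means over the 5 days were 11.32 ± 0.144 in selection and 10.88 ± 0.162 in control flies (SD, n = 3), the lowest selection population at 11.15 and the highest control population at 11.06. How many of all transcripts separate like this was not counted, here or for the ranges of the other genes below. Unadjusted p under 0.05 came from 2755 of the 16637 transcripts in this limma comparison. The difference was 0.44 with a 95% confidence interval from 0.18 to 0.70, not adjusted for the number of transcripts (limma adjusted p 0.231). It was uneven over the days, at -0.02 on day 1, 1.00 on day 5, 0.45 on day 15, 0.14 on day 30 and 0.64 on day 50. On day 5 the 6 selection heads ranged from 11.05 to 11.99 (median 11.27) and the 6 control heads from 8.85 to 11.45 (median 10.80). The low control heads were the second replicate of control population 1 at 9.06 and both of control population 3. The latter read 8.85, on an array of low correlation, and 10.20. The other 3 control heads lay between 11.40 and 11.45, inside the selection range. The replicates of control population 1 thus differed by 2.39, the widest replicate gap of kis in head, where the median gap was 0.59. The day-5 value (limma adjusted p 0.153) fell to 0.56 without control population 3 and rose to 1.51, then called, without control population 2 (limma adjusted p 0.382 and 0.0073). On day 50 the selection populations lay close together at 11.44 to 11.49 and the controls at 10.48 to 11.34. The control averages of that day include the head of opposite score of control population 2, at 10.19, whose replicate read 11.18.

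The regime values of the other genes were small or scattered. SuUR on day 1 in head was 0.74 lower in selection (-0.74, limma adjusted p 0.675), with populations at 10.38 to 10.89 against 11.05 to 11.63. That control range includes the heads of control population 3 and control population 1 with displaced scores. HDAC3 on day 30 in abdomen was 0.25 lower in selection (-0.25, limma adjusted p 0.998), at 12.67 to 12.81 against 12.89 to 13.08. His4r in head averaged 0.09 lower in selection (-0.09, limma adjusted p 0.491). In abdomen the differences over all days were 0.05 for kis, -0.10 for SuUR, -0.02 for HDAC3 and 0.02 for His4r.

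Whether the regimes differed in how the genes moved with age was tested as an interaction. From day 1 to day 5 in head, SuUR changed by 0.57 ± 0.345 in selection and -0.55 ± 0.907 in control populations (SD, n = 3), a difference of 1.11 (limma adjusted p 0.408). kis changed by 0.13 ± 0.517 and -0.89 ± 1.01, a difference of 1.02 (limma adjusted p 0.434). The control means include control population 3 (-1.41 for SuUR and -1.93 for kis), whose day-1 heads are of opposite score. Its day-5 heads include an array of low correlation, at 9.79 for SuUR and 8.85 for kis. Without that population the differences were 0.68 for SuUR and 0.50 for kis (limma adjusted p 0.972 for both), without the arrays of low correlation 0.54 and 0.37 (limma adjusted p 0.923 and 0.966), and without both displaced sets 0.48 and 0.78 (limma adjusted p 0.925 for both). Neither passed, nor did any other of the 4 genes in either tissue or from day 5 to 50. The share of transcripts called was 0 percent for maturation in head and for ageing in both tissues, and 0.00601 percent for maturation in abdomen. The tissue difference in the regime effect was 0.39 for kis (limma adjusted p 0.959), with 0 percent called.

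A few head arrays read far below the rest for HDAC3. Of the 6 control heads on day 30, 5 read 12.00 to 12.23 and that of control population 3, biological replicate 1, read 9.54. Of the selection heads, selection population 3 gave 9.68 on day 1, where the other 5 lay above 11.5, then 10.45 on day 15 and 11.61 on day 30. All 4 of these heads were among the arrays of low correlation, at 0.868, 0.932, 0.929 and 0.924. The abdomen of low correlation, control population 2 on day 15 (biological replicate 2, 0.806), held the lowest abdominal HDAC3 (11.74) and the lowest abdominal kis (9.62). The same head of control population 3 on day 30 had the lowest His4r of its day, 13.92. Without the 10 arrays HDAC3 was -0.77 lower in head, against -0.87 with them, and called either way.

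**Figure D4:**
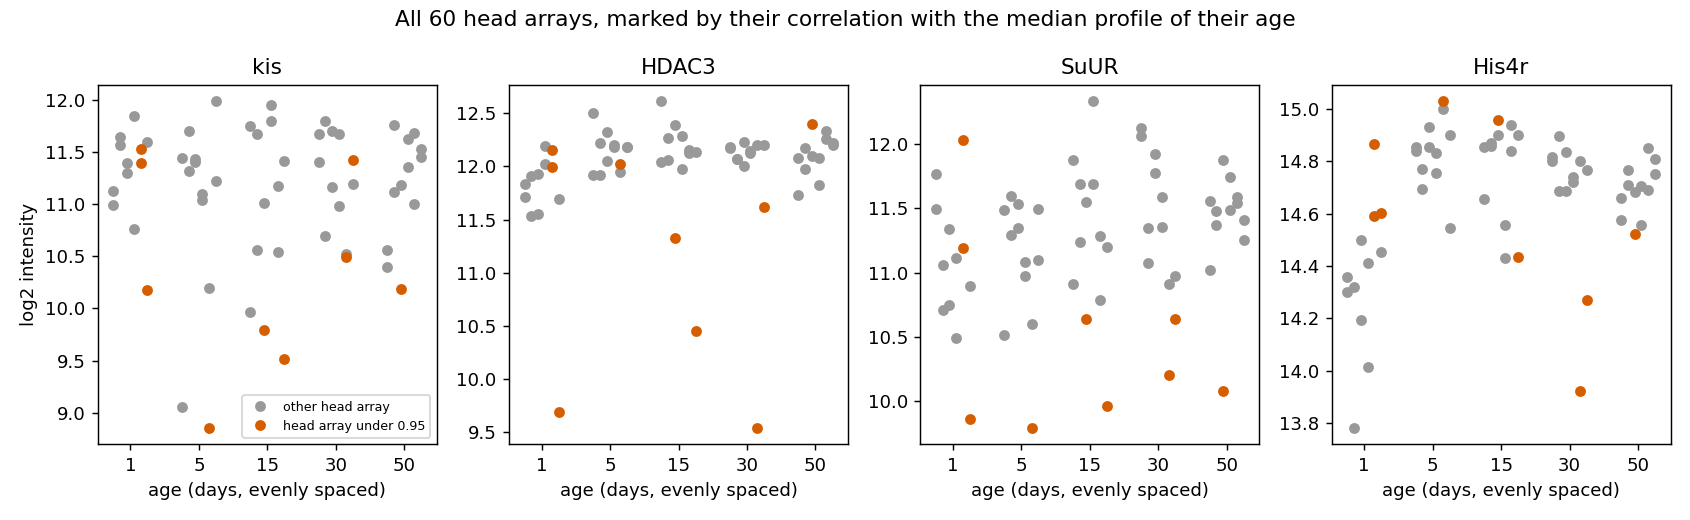
Log2 intensity of each transcript on the 60 head arrays against age in days, evenly spaced; points are spread sideways by population. Orange marks the 9 heads that correlate under 0.95 with the median profile of the other heads of their day, and grey the other 51 heads. The HDAC3 values of 9.54, 9.68 and 10.45 are all orange, while for kis and His4r grey points also lie at the bottom of the range.

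The 4 genes differed in what their variation came from. In abdomen, day accounted for 47.1 percent of the sum of squares of SuUR, 32.1 percent of kis, 25.4 percent of HDAC3 and 21.0 percent of His4r, where the median transcript had 21.5 percent. In head the order turned round: day took 38.5 percent of His4r and 5.20, 5.52 and 9.72 percent of kis, SuUR and HDAC3, with a median transcript of 10.6 percent. Regime took 10.3 percent of kis in head and at most 3.23 percent in every other case. Population by day took from 12.2 percent (HDAC3 in abdomen) to 34.0 percent (kis in abdomen). Biological replicates of a population took from 18.4 percent (SuUR in abdomen) to 51.5 percent (HDAC3 in abdomen). The median transcript had 31.2 percent for replicates in abdomen and 43.3 percent in head. Degrees of freedom were 4 for day, 1 for regime, 16 for population by day and 30 for replicates. Shares of different sources are therefore not directly comparable, since noise alone gives more to sources with more degrees of freedom.

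**Figure D5:**
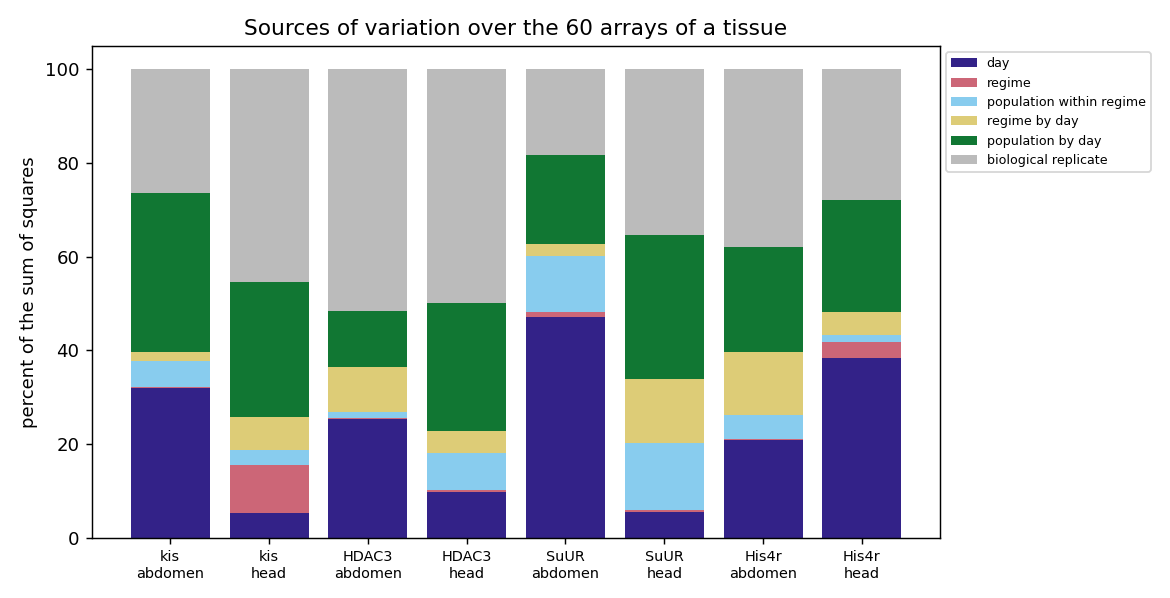
Percent of the sum of squares over the 60 arrays of a tissue by source, for each transcript. The share of day (dark blue) is 47.1 percent for SuUR in abdomen and 5.52 percent in head, and for His4r it is 21.0 and 38.5 percent.

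The genes also varied together to different degrees, described here by Pearson correlations over 30 averages of population and day, which share arrays and normalization. In abdomen kis followed SuUR at 0.81 and HDAC3 at 0.70, and had a correlation of -0.01 with His4r. Without day 1, over 24 averages, kis and SuUR still correlated at 0.66, while kis and SuUR correlated with His4r at -0.67 and -0.63. The correlation of kis with HDAC3 was then 0.49, and that of HDAC3 with SuUR went from 0.55 to 0.04. These averages include the day-15 abdomen of low correlation in control population 2, with the lowest abdominal kis and HDAC3. Its part was not tested. In head kis and SuUR correlated at 0.66, and at 0.79 without day 1, although neither passed the test for age there. These head averages include the 9 heads of low correlation. The lowest head averages of kis (9.53) and SuUR (10.20) were both those of control population 3 on day 5, which hold one of these heads. The part of these heads in the correlations was not tested.

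The transcripts most like each gene over the 30 averages of a tissue have no symbol in the gene table and are given by identifier. For kis they were FBtr0078926 (Pearson correlation 0.96) and FBtr0085178 (0.955) in abdomen, and FBtr0075318 (0.951) and FBtr0087648 (0.948) in head. For HDAC3 they were FBtr0075986 (0.908) and FBtr0081898 (0.894) in abdomen, and FBtr0076488 (0.927) and FBtr0077241 (0.922) in head. For SuUR they were FBtr0070146 (0.904) and FBtr0086732 (0.902) in abdomen, and FBtr0085621 (0.922) and FBtr0082086 (0.841) in head. For His4r they were FBtr0089222 (0.84) and FBtr0084257 (0.837) in abdomen, and FBtr0079951 and FBtr0100020 (both 0.895) in head. Company was uneven: 1212 transcripts correlated over 0.8 with kis in abdomen and 16 with His4r, while in head 338 did with kis and 5 with SuUR. No transcript was shared between tissues among these pairs. The averages include the 9 heads and 1 abdomen of low correlation. For HDAC3 in head the lowest averages (10.69, 10.87 and 11.29) each hold such an array. The part of these arrays in the likeness was not tested.

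Signal cannot always be assigned to a single gene or isoform. The gene table lists 22 H4 genes in the histone cluster, which encode the same protein as His4r, and it was not tested how much of their RNA the His4r probes also bind. It lists 6 transcripts for kis, 4 for His4r and 1 each for HDAC3 and SuUR, and does not say which of them the measured row stands for. None of 69 other chromatin genes chosen for comparison, among them remodellers, deacetylases, histones and Polycomb genes, was tied to a transcript of the array (0 of 69), so these pathways could not be followed further.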

How the data were processed

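Each of the 120 samples was hybridised to a one-colour NimbleGen array (Cy3). The authors deposited 1 table of log2 intensities per transcript, made with RMA per the submitters' processing notes, so background correction, normalization and probe summary came before this work. For RMA's version and settings, and for the genome annotation, the entry is: not given in the sources used here. The number of arrays, not a read depth, sets how precise each value is. No 2 arrays were identical, and no per-sample column was left out of use.

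The 4 members and all gene lists were chosen with earlier results of these data known. Biological replicates were averaged per population, day and tissue. limma 3.58.1 in R 4.3.3 (lmFit, eBayes with an intensity trend, two-sided, Benjamini-Hochberg over all transcripts) tested head against abdomen with population as a block, selection against control on 3 population means each, and age with population and regime by day as terms (16 residual degrees of freedom). Flies of separate biological replicates share a population, and whether they share vials is not stated. The genes named are the 4 members and, for each and each tissue, the 2 transcripts of highest Pearson correlation. The day-1 score used 200 transcripts each way, none a member, chosen on populations of other numbers. On day 1 a score under 0.25, and on later days one over 0.75, counted as opposite.

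The labels speak of pairs of selection and control populations without saying that the number marks them. Deviations of same-numbered populations correlated at -0.03, 0.35 and 0.44 in abdomen and 0.26, 0.06 and 0.31 in head. The closest control had the same number for selection populations 2 and 3 in abdomen and 1 and 3 in head only. This does not settle whether numbers mark pairs, and the main tests did not use them as pairs. Scripts were tested on simulated data: a 2-fold change was recovered in 92 percent of 50 transcripts for maturation in abdomen, 88 percent for ageing in head, 98 percent for regime in head and 32 percent for the regime difference in maturation in head. A change of 0.5 on the log2 scale was recovered in 38, 40, 62 and 4 percent, in the same order. Population deviations were drawn anew for each day and tissue, so lasting population levels and displaced arrays were not simulated. The recovery for regime can therefore be too high for the real data. A planned search for promoter motifs was not run, since no promoter sequence was used here. Alternatives were other scalings, no intensity trend, a filter on mean intensity, each population or replicate left out, arrays of displaced score left out, blocks, and 2 sets of arrays added after the data were seen (both displaced sets together, and the 10 arrays of low correlation).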

Additional observations from a re-analysis of the deposited data

Results flagged for a closer look

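In groups of 6 arrays, 12 of 80 groups of the 4 genes had an array far from the rest by Dixon's test. For independent arrays chance flags about 1 in 20 groups, or 4 of 80, but the arrays here are not independent. HDAC3 gave the most flags. Its 6 flagged values were all low: 11.74 in the day-15 abdomen of control population 2, 9.54 in the day-30 head of control population 3, and 9.68, 10.45 and 11.61 in the heads of selection population 3 on days 1, 15 and 30. The sixth was 11.91 in a day-5 head of selection population 1. A group holds 2 replicates of each of 3 populations, and the same arrays recur for all 4 genes. The 12 flags are therefore not tested against the 4.

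His4r gave 4: a low 14.12 and a high 14.92 in abdomens of selection population 3 on days 1 and 50, a low 13.92 in the day-30 head of control population 3 and a low 14.27 in the day-30 head of selection population 3. kis gave 2 low abdomens, 10.94 in control population 3 on day 50 and 11.37 in selection population 2 on day 30. Of the 12 values, 7 lay on arrays of low correlation, and the cause was not tested.

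The change from day 1 to day 5 differed between head and abdomen by the test of the difference, at -1.43 for kis and -0.76 for SuUR. Both are given in the report with and without the arrays of displaced score.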

How the results depend on the processing

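Of the called results of single genes, 427 of their recomputed values kept direction and call, 40 kept direction and lost the call, and 0 changed direction. Quantile normalization lost the call for head against abdomen of HDAC3 on day 1 (-0.31), day 15 (-0.27) and day 30 (-0.42), of kis on day 15 (-0.67) and day 30 (-0.46), of SuUR on day 1 (-0.30), and for the tissue difference in maturation of SuUR (-0.71). That last call also went without an intensity trend (-0.76), without the heads of opposite score (-0.55), without control population 1 on day 1 (-0.74), without both displaced sets (-0.24) and without the arrays of low correlation (-0.57), and the kis one went without both sets (-0.98). With a 2-fold minimum HDAC3 (-0.87) was no longer called for tissue. The net change of His4r from day 1 to 50 lost its call in abdomen after median centring (0.18) and without the arrays of low correlation (0.18), and in head without control population 1 on day 1 (0.29). HDAC3 maturation in head became called without the heads of opposite score (0.50) and without the arrays of low correlation (0.34). His4r head against abdomen turned to 0.15 (quantile), 0.42 (median centring) and 0.0061 (without both sets), and kis regime in abdomen to -0.018 without the arrays of low correlation.

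The kis regime difference on day 5 in head became called without control population 2 (1.51). Leaving out each population or biological replicate in turn ended some calls. Ranges for maturation in abdomen were 0.30 to 0.40 for HDAC3 (lost without biological replicate 1, 0.37) and 0.20 to 0.30 for His4r (lost without biological replicate 1 or selection population 3). In head they were 0.36 to 0.58 for His4r (lost without biological replicate 2) and 0.24 to 0.59 for HDAC3 (called without control population 3). From day 1 to 50 they were 0.28 to 0.41 for HDAC3, 0.11 to 0.23 for His4r and 0.85 to 1.24 for kis in abdomen, and 0.24 to 0.41 for His4r in head. The tissue difference in maturation ran from -1.05 to -0.47 for SuUR (lost in 6 of 8), -1.71 to -1.03 for kis (lost without biological replicate 2), -0.11 to 0.24 for HDAC3 and 0.09 to 0.36 for His4r (called without selection population 3). Other results, not called with all arrays, changed sign: ageing in abdomen of HDAC3 (-0.039 to 0.035), His4r (-0.14 to 0.0081) and kis (-0.19 to 0.13), ageing in head of HDAC3 (-0.094 to 0.061) and kis (-0.087 to 0.55), maturation in head of SuUR (-0.23 to 0.23), His4r head against abdomen (-0.054 to 0.019), regime in abdomen of HDAC3 (-0.081 to 0.034), His4r (-0.0061 to 0.053), SuUR (-0.23 to 0.0198) and kis (-0.11 to 0.18), and regime in head of HDAC3 (-0.16 to 0.067) and SuUR (-0.20 to 0.084). Causes were not tested.

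With the population number as a replicate block, kis regime in head was 0.44 with a limma adjusted p of 0.161, and the replicate block changed no call of the 4 genes for regime in either tissue. When population entered as a random block over single arrays, its limma adjusted p was 0.164.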
